A study of Homo sapiens with 6 samples.

Results

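The YAP-TEAD pathway was followed through 10 genes, chosen by name for their place in the pathway, with earlier results of these libraries known: the coactivators YAP1 and WWTR1 (the gene of TAZ), the DNA-binding partners TEAD1 and TEAD4, the targets CTGF, CYR61 and ANKRD1, and the regulators AMOTL2, AJUBA and LATS2. All 10 were found among the 58884 genes measured, with CTGF and CYR61 listed under their newer symbols CCN2 and CCN1, and all 10 passed the filter on low counts. The RNA of an immortalized line, which the paper describes as human ventricular cardiomyocytes, was sequenced in 6 libraries. Of these, 3 came from cells given a negative control siRNA (NC) and 3 from cells given an siRNA that targets CIRBP (SiCIRBP). CIRBP encodes a cold-inducible RNA-binding protein that the study examined for protection of cardiomyocytes from chemotherapy-induced apoptosis. The labels name the line T0519 and the paper names AC16, the other immortalized ventricular line it used, and the dose of siRNA and the time of harvest are not given in the sources used here. The cells of both groups were grown in the same serum-containing medium, and no drug is named in the labels of either group.

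The study left NC_1 and SiCIRBP_2 out of its own test because it judged them the most discrepant by correlation and principal component analysis. Values over NC_2, NC_3, SiCIRBP_1 and SiCIRBP_3 (4 libraries) are therefore given first, with those over all 6 libraries beside them. Total estimated counts lay between 25726259 and 29919566 per library. Across 15217 genes, which are not independent replicates, libraries were compared by the Pearson correlation of log2(CPM + 1). It was 0.997 between NC_2 and NC_3 but only 0.960 to 0.975 between SiCIRBP_2 and any other library. NC_1 stood less apart, at 0.994 with NC_2 and 0.993 with NC_3. It was also nearer to SiCIRBP_1 and SiCIRBP_3 (0.991 and 0.990) than NC_2 and NC_3 were (0.981 to 0.985). CPM is the normalized count, as a rate per library total after scaling of library sizes by the TMM method. CIRBP itself was at 86.4, 85.8 and 91.0 CPM in NC_1, NC_2 and NC_3, and at 54.8, 24.3 and 46.3 CPM in SiCIRBP_1, SiCIRBP_2 and SiCIRBP_3. No SiCIRBP library reached the level of any NC library, and the excluded SiCIRBP_2 was the lowest.

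YAP1 and TAZ are the nuclear effectors of the Hippo pathway. When the kinases LATS1 and LATS2 are active, they phosphorylate both proteins, which are then held in the cytoplasm or degraded, and when the kinases are inactive YAP1 and TAZ enter the nucleus, bind TEAD factors on DNA and raise the transcription of targets such as CTGF and CYR61. Stretch, cell spreading and actin tension are among the known inputs, and in heart muscle the pathway is known for its part in growth of the organ and in repair. Most of this control acts on the proteins, which were not measured in these libraries.

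TEAD factors recognise a short DNA core, GGAATG, which reads as CATTCC on the other strand. RefSeq promoters were available for 7 of the 10 genes, with none in the table for TEAD1, TEAD4 and CYR61. The core was searched on both strands in the 250 bases before each start. At least 1 core was present in 11.9% of 35116 promoters of all genes, and 3 or more in 0.083% (29 promoters). CTGF, whose fold change was the largest in size of the 10 over the 4 libraries, had 3 cores on its own strand, at 169, 104 and 95 bases before the start. Its promoter, chr6:131951373-131951622 on the minus strand of GRCh38.p14, is shown 5′ to 3′ with the cores in capitals.
CTGF: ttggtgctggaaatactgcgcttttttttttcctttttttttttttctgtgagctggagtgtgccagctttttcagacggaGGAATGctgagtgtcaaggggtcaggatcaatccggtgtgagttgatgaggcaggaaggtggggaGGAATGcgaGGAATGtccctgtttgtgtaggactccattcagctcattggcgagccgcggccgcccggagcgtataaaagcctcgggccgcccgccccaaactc

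The other matches are shown as 30-base windows, so that the cores of AMOTL2, which was lower over the 4 libraries, and of ANKRD1, YAP1 and AJUBA, which did not pass the test, can be set beside those of CTGF. ANKRD1 had 2 cores, 220 bases (chr10:90921290-90921319) and 128 bases (chr10:90921198-90921227) before the start on the minus strand. YAP1 had 1, 162 bases before the start (chr11:102110273-102110302, plus strand). AMOTL2 had 1 on the opposite strand, 69 bases before the start of the second of its 2 promoters (chr3:134374499-134374528), and AJUBA had 1, 59 bases before the start of the second of its 2 (chr14:22976884-22976913), both genes being on the minus strand. The windows are written on the strand of the gene, with the core in capitals.
ANKRD1, distal core: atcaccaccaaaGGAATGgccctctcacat
ANKRD1, proximal core: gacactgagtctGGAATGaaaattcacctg
YAP1: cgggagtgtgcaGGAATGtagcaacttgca
AMOTL2: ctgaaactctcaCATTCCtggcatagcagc
AJUBA: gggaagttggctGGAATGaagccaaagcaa
No core was found in these letters for WWTR1 or LATS2. Of the 2 other motifs searched on both strands, the AP-1 site TGANTCA, present in 6.57% of all promoters, occurred once, in ANKRD1 at 195 bases before the start, and the CArG box bound by SRF, present in 1.16%, occurred in none of the promoters of these genes. A match describes the sequence only, since binding was not measured here.

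Of the 10 genes, 6 were lower in SiCIRBP than in NC over the 4 libraries and 0 were higher, at an adjusted p-value under 0.05 (quasi-likelihood test of edgeR, Benjamini-Hochberg adjustment over the 15421 genes tested). Of all genes tested, 9.76% were called lower and 9.62% higher. The 6 were the secreted targets CTGF and CYR61, the regulators AMOTL2 and LATS2, the coactivator WWTR1 and the factor TEAD1. The median log2 fold change of the 10 was -0.46, against -0.002 over all genes tested. Requiring in addition a change of at least 2-fold left 1 gene lower (CTGF) and 0 higher, where 1.8% of all genes were lower and 1.82% higher. CYR61 lay just short of that limit, at 0.500017 of its NC level. With 1 library left out, the lone library of that group is assumed to vary like the other group. Without NC_2 or without NC_3 only CTGF stayed called of the 10, among 99 and 39 genes called lower in all, whereas without SiCIRBP_1 or without SiCIRBP_3 there were 7 called lower, YAP1 being the addition, and 1 called higher, AJUBA and ANKRD1 respectively, where 3669 and 3371 of all genes were called lower and 3379 and 3047 higher.

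Over all 6 libraries the same test called none of the 10 genes in either direction, and it called 0% of the 15217 genes tested lower and 0% higher. At an unadjusted p-value under 0.05, edgeR gave 5 of the 10 lower and 1 higher (1764 and 1839 of all genes), and the median of the 10 was -0.32, against 0.01 over all genes. DESeq2 called CTGF and CYR61 lower over the 6 libraries and none higher, where it called 5.17% of genes lower and 4.6% higher. Over the 4 libraries DESeq2 called 7 lower, YAP1 being added to the 6 genes above, and 0 higher, where 11.8% and 10.6% of genes were called. In 4 of the 10 genes (WWTR1, TEAD1, CTGF and CYR61) every SiCIRBP library lay below every NC library, and in 0 genes above, whereas 16.6% of all genes did so in the lower and 16.2% in the higher direction. For these 4 genes the exact two-sided permutation test of 3 against 3 libraries gave p = 0.1, the smallest value this design allows. Since whole cultures were measured, fewer cells of a type and less RNA per cell cannot be told apart.

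**Figure D1:**
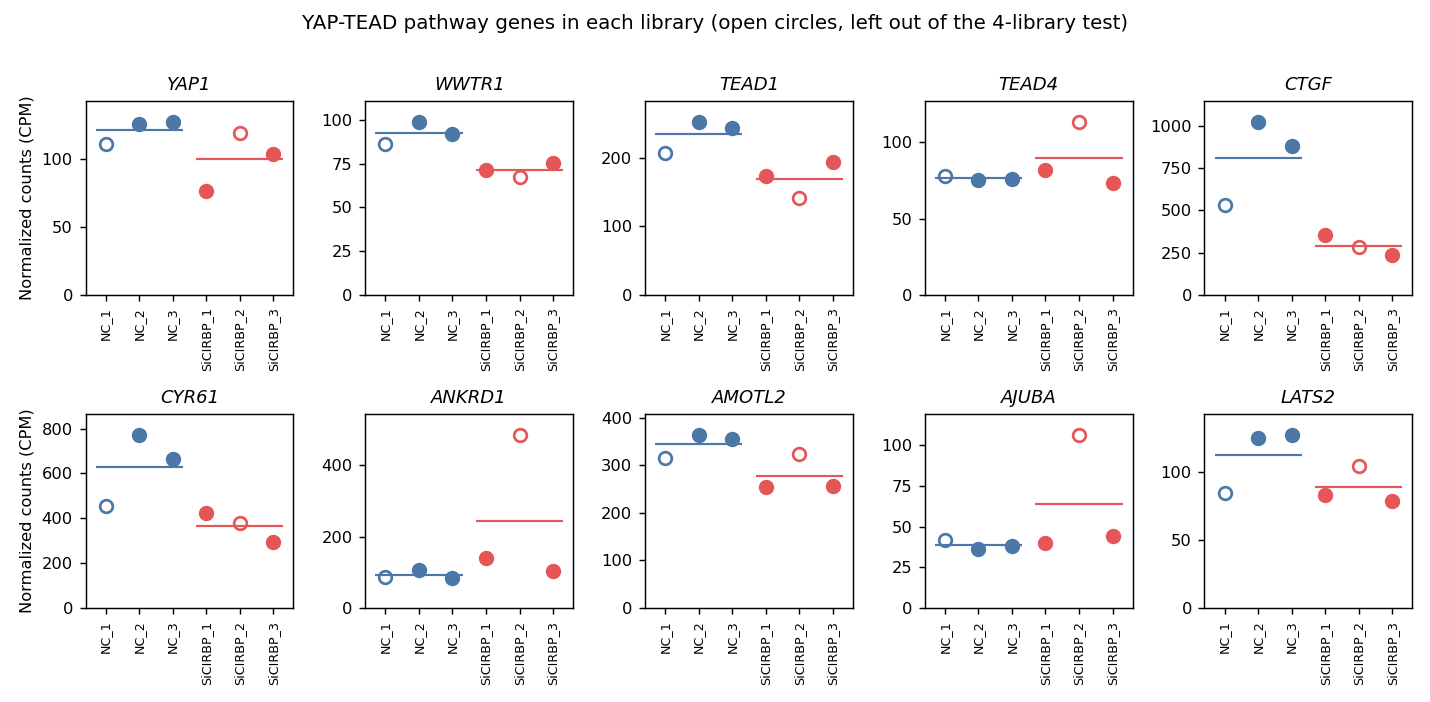
Normalized counts (CPM, linear axes from 0) of the 10 genes in the 3 NC (blue) and 3 SiCIRBP (red) libraries. Filled circles are the 4 libraries of the study's test, open circles are NC_1 and SiCIRBP_2, and lines are means of 3 libraries; WWTR1, TEAD1, CTGF and CYR61 do not overlap between groups, and SiCIRBP_2 stands far above every other library for ANKRD1 (486 CPM) and AJUBA (106 CPM).

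Of the 10 genes, the secreted targets showed the largest falls over the 4 libraries. CTGF, a matricellular protein of the CCN family that acts in fibrosis and adhesion, was at 530.1, 1026 and 879 CPM in NC_1, NC_2 and NC_3. In SiCIRBP_1, SiCIRBP_2 and SiCIRBP_3 it was at 357, 282 and 237 CPM. The groups did not overlap, although NC_1 had only 0.556 of the mean of the other NC libraries. The log2 fold change was -1.68 over the 4 libraries (standard error 0.19, adjusted p = 0.00605 in edgeR), which is 3.21-fold lower, and -1.48 over all 6 (standard error 0.26, adjusted p = 0.0869 in edgeR). The gene of CTGF (ENSG00000118523) is on the minus strand of chromosome 6, from 131948176 to 131951373 (GRCh38, as for all gene locations given here), with 1 annotated transcript. The antisense gene AL133346.1 shares 5.98% of the 31-base words of CTGF, and whether reads were counted by strand is not given in the sources used here.

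CYR61, also a matricellular CCN protein and an early target of YAP1, was at 453, 772 and 666 CPM in the NC libraries and at 425, 379.8 and 293 CPM in the SiCIRBP libraries, in the order of their numbers. The lowest NC value (NC_1) and the highest SiCIRBP value (SiCIRBP_1) were close, yet the groups did not overlap. Its log2 fold change was -1.0 over the 4 libraries (standard error 0.17, adjusted p = 0.0151 in edgeR) and -0.78 over all 6 (standard error 0.22, adjusted p = 0.114 in edgeR). CYR61 (ENSG00000142871) lies on chromosome 1 from 85580761 to 85583962 on the plus strand, and shares no 31-base word with another gene.

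The balance of CTGF and CYR61 was compared within each library. TPM is the count divided by the transcript length assigned to the gene and scaled to a fixed sum, so a ratio of 2 genes in TPM within a library is free of library size. The ratio of CTGF to CYR61 in TPM was 1.10, 1.27 and 1.26 in NC_1, NC_2 and NC_3, and 0.782, 0.711 and 0.748 in SiCIRBP_1, SiCIRBP_2 and SiCIRBP_3. CTGF was thus the more abundant of the pair in every NC library and the less abundant in every SiCIRBP library, the libraries left out of the study's test included.

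ANKRD1, a nuclear and sarcomeric ankyrin repeat protein of muscle that is also widely used as a YAP1 target, did not follow CTGF and CYR61. It was at 88.1, 105 and 85.4 CPM in the NC libraries and at 139, 486 and 103 CPM in SiCIRBP_1, SiCIRBP_2 and SiCIRBP_3. SiCIRBP_2 had 5.23 times the NC mean, SiCIRBP_1 lay above all NC libraries and SiCIRBP_3 lay just below NC_2. Its log2 fold change was 0.35 over the 4 libraries (standard error 0.16, adjusted p = 0.171 in edgeR) and 1.39 over all 6 (standard error 0.52, adjusted p = 0.17 in edgeR), and the latter was 0.39 without SiCIRBP_2. The ratio of ANKRD1 to CTGF in TPM was 0.231, 0.142 and 0.132 in the NC libraries and 0.549, 2.49 and 0.604 in the SiCIRBP libraries. This ratio did not overlap between the groups. The other ratios taken in TPM, TEAD4 to TEAD1 and WWTR1 to YAP1, did overlap. TEAD4 to TEAD1 ranged from 1.712 to 2.042 in NC and from 1.758 to 4.599 in SiCIRBP. WWTR1 to YAP1 ranged from 0.744 to 0.946 in NC and from 0.684 to 1.085 in SiCIRBP. How often ratios of other gene pairs separate the groups was not counted. ANKRD1 (ENSG00000148677) lies on chromosome 10 from 90912096 to 90921276 on the minus strand, with 1 annotated transcript.

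Of the coactivators, 1 of 2 passed the test. WWTR1, which encodes TAZ, was at 86.2, 99.1 and 91.8 CPM in the NC libraries and at 71.6, 67.4 and 75.5 CPM in the SiCIRBP libraries. The groups did not overlap, and the values within each varied little. The log2 fold change was -0.38 over the 4 libraries (standard error 0.09, adjusted p = 0.0316 in edgeR) and -0.37 over all 6 (standard error 0.11, adjusted p = 0.126 in edgeR). WWTR1 (ENSG00000018408) spans chromosome 3 from 149517235 to 149736714 on the minus strand, and WWTR1-AS1 on the opposite strand shares 8.72% of its 31-base words.

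YAP1 was at 111, 126 and 128 CPM in the NC libraries and at 76.5, 119.7 and 104 CPM in the SiCIRBP libraries. SiCIRBP_1 was the lowest of the 6, while SiCIRBP_2 lay within the NC range. The log2 fold change over the 4 libraries was -0.49 (standard error 0.14, adjusted p = 0.0553 in edgeR), larger in size than that of WWTR1 but short of the threshold, and DESeq2 over the same libraries gave an adjusted p of 0.00661. Over all 6 it was -0.28 (standard error 0.17, adjusted p = 0.339 in edgeR). YAP1 (ENSG00000137693) spans chromosome 11 from 102110461 to 102233423 on the plus strand, and the antisense gene AP000942.2 shares 8.96% of its 31-base words.

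Of the TEAD factors, which carry the complex to DNA, TEAD1 passed the test over the 4 libraries and TEAD4 did not. TEAD1 was at 208, 253 and 244 CPM in the NC libraries and at 174, 142 and 194 CPM in the SiCIRBP libraries, with no overlap, and SiCIRBP_2 was the lowest of all. Its log2 fold change was -0.43 over the 4 libraries (standard error 0.09, adjusted p = 0.0203 in edgeR) and -0.47 over all 6 (standard error 0.15, adjusted p = 0.134 in edgeR). TEAD1 (ENSG00000187079) spans chromosome 11 from 12674591 to 12944483 on the plus strand.

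TEAD4 was at 78, 75.5 and 75.8 CPM in the NC libraries and at 82.0, 114 and 73.1 CPM in the SiCIRBP libraries. SiCIRBP_2 stood above the rest, and the other SiCIRBP libraries lay on either side of the NC values. The log2 fold change was 0.04 over the 4 libraries (standard error 0.09, adjusted p = 0.802 in edgeR), turning to -0.056 without SiCIRBP_1, and 0.23 over all 6 (standard error 0.17, adjusted p = 0.423 in edgeR), or 0.02 over 5 libraries without SiCIRBP_2. Whether the changes of TEAD1 and TEAD4 differ was not tested. The transcript length implied for TEAD4, as the ratio of count to TPM relative to its NC mean, was 1.18 in SiCIRBP_1 and 1.22 in SiCIRBP_3, 1.02 in SiCIRBP_2 and 0.977 to 1.05 in the NC libraries. That difference of 0.19 between the group means on the log2 scale was larger in size than those of 89.3% of the 11560 genes with at least 50 counts in every library. The implied length was computed for every pathway gene followed here, and TEAD4 is given because its share was the largest. AJUBA came next at 83.8%, and CTGF was the lowest at 9.13%. The implied lengths of TEAD4 overlapped between the groups, and a shift between its transcripts was not tested. TEAD4 (ENSG00000197905) lies on chromosome 12 from 2959330 to 3040673 on the plus strand, with 8 annotated transcripts.

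Among the regulators that feed back on the pathway, AMOTL2 and LATS2 passed the test over the 4 libraries and AJUBA did not. AMOTL2, an angiomotin-like protein that binds YAP1 and is itself a target, was at 316, 364 and 355 CPM in the NC libraries and at 255, 323 and 256 CPM in the SiCIRBP libraries. SiCIRBP_1 and SiCIRBP_3 were alike and below all NC libraries, and SiCIRBP_2 overlapped NC_1. The log2 fold change was -0.49 over the 4 libraries (standard error 0.07, adjusted p = 0.0102 in edgeR) and -0.31 over all 6 (standard error 0.13, adjusted p = 0.21 in edgeR). AMOTL2 (ENSG00000114019) lies on chromosome 3 from 134355874 to 134375479 on the minus strand, and the pseudogene RPL39P5 within it shares 2.57% of its 31-base words.

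LATS2, the kinase that phosphorylates YAP1 and TAZ and is induced by them, was at 84.1, 124 and 127 CPM in the NC libraries and at 82.9, 104 and 78.7 CPM in the SiCIRBP libraries. NC_1 lay at the level of SiCIRBP_1, and SiCIRBP_2 lay midway between the groups of the 4-library test. Its log2 fold change was -0.64 over those 4 libraries (standard error 0.08, adjusted p = 0.00744 in edgeR), 1.56-fold lower, and -0.34 over all 6 (standard error 0.19, adjusted p = 0.306 in edgeR). LATS2 (ENSG00000150457) lies on chromosome 13 from 20973032 to 21061547 on the minus strand, and LATS2-AS1 overlaps it on the opposite strand.

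AJUBA, a LIM protein that binds and restrains the LATS kinases, was at 41.7, 36.4 and 38.1 CPM in the NC libraries and at 39.9, 106 and 44.4 CPM in the SiCIRBP libraries. SiCIRBP_2 had 2.75 times the NC mean, and SiCIRBP_1 lay inside the NC range. The log2 fold change was 0.18 over the 4 libraries (standard error 0.10, adjusted p = 0.259 in edgeR) and 0.71 over all 6 (standard error 0.35, adjusted p = 0.251 in edgeR), which became 0.12 without SiCIRBP_2. AJUBA (ENSG00000129474) lies on chromosome 14 from 22971174 to 22982642 on the minus strand. It overlaps the protein-coding gene AL132780.3 on the same strand over 11085 bases, although only 0.332% of the 31-base words of AJUBA occur in the transcripts of that gene.

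**Figure D2:**
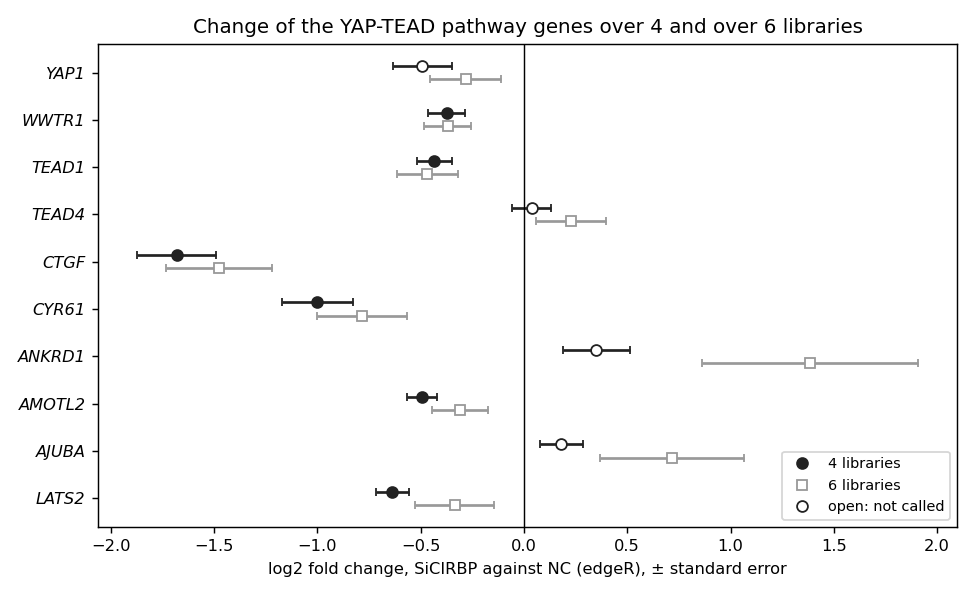
Log2 fold change of SiCIRBP against NC with its standard error from edgeR, for each of the 10 genes over 4 libraries (black circles) and over all 6 (grey squares), filled where the adjusted p-value is under 0.05. The 6 filled genes lie between -1.68 and -0.38 over the 4 libraries, no square is filled, and ANKRD1 moves from 0.35 to 1.39 when NC_1 and SiCIRBP_2 are added.

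The libraries left out of the study's test deviated unequally across these genes. NC_1 lay below both other NC libraries in 7 of the 10 genes, most in CTGF, CYR61 and LATS2, where it had 0.556, 0.63 and 0.669 of the mean of NC_2 and NC_3. SiCIRBP_2 lay above both other SiCIRBP libraries in 6 genes and below both in 2, WWTR1 and TEAD1. How many of all genes ranked in these ways was not counted. Against the mean of SiCIRBP_1 and SiCIRBP_3 it had 4.01 times as much ANKRD1 and 2.52 times as much AJUBA, but 0.95 times as much CTGF and 1.06 times as much CYR61. CTGF and CYR61 in SiCIRBP_2 thus lay between SiCIRBP_1 and SiCIRBP_3, while YAP1, AMOTL2 and LATS2 were at 0.985, 0.937 and 0.931 of the NC mean there.

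Levels of different genes can be compared in TPM only. In the NC group the order was CTGF at 509.8 ± 161 TPM (SD, n = 3), CYR61 at 416 ± 105, AMOTL2 at 111 ± 10.0, ANKRD1 at 80.1 ± 8.88, TEAD4 at 66.4 ± 2.42, YAP1 at 41.6 ± 5.35, TEAD1 at 36.2 ± 4.18, WWTR1 at 35.3 ± 4.14, LATS2 at 26.7 ± 6.40 and AJUBA at 15.8 ± 0.451. The ranges of CTGF and CYR61 overlapped, as did those of each neighbouring pair from YAP1 to LATS2, and the other neighbours were apart. In the SiCIRBP group CYR61 led at 223 ± 42.7 TPM (SD, n = 3), followed by ANKRD1 at 191 ± 157, which ranged from 85.4 to 372, and CTGF at 168 ± 38.7. AMOTL2 followed at 82.3 ± 5.34 and TEAD4 at 62.7 ± 17.1, and the ranges of YAP1, WWTR1, TEAD1, AJUBA and LATS2, with means from 29.9 to 19.6 TPM, overlapped those of their neighbours. The median log2 TPM over 15121 genes was itself lower in SiCIRBP than in NC, by a difference of -0.22, so TPM was used between the groups only for ratios of genes within a library. TEAD4 shows the effect, with a log2 difference in TPM of -0.12 as deposited and 0.11 once the library medians are made equal.

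**Figure D3:**
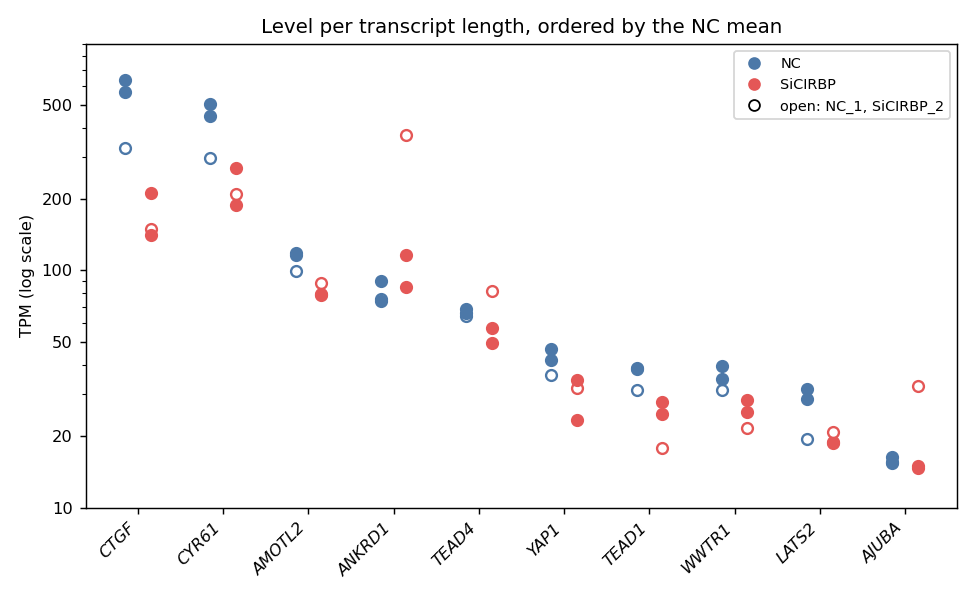
TPM of the 10 genes on a log axis, ordered by the NC mean, with NC libraries in blue, SiCIRBP libraries in red, and NC_1 and SiCIRBP_2 as open circles. CTGF and CYR61 lie highest in NC (means 509.8 and 416 TPM) and overlap with ANKRD1 in SiCIRBP, where ANKRD1 spreads from 85.4 to 372 TPM.

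The surrounding pathway was described from lists of related genes. Over the 4 libraries edgeR called 9.76% of all genes tested lower and 9.62% higher, the shares to set beside the count of each list. Among 16 other genes of the Hippo kinase cascade and its upstream regulators, 4 were lower and 1 was higher over the 4 libraries at an adjusted p-value under 0.05 in edgeR, with a median log2 fold change of -0.21. PTPN14, a phosphatase that binds YAP1, had a log2 fold change of -0.57 (standard error 0.08, adjusted p = 0.00954 in edgeR), WWC2 of -0.54, MOB1B, which encodes a LATS cofactor, of -0.56 and WWC1, which encodes KIBRA and was added after its values were seen, of -0.49. TAOK2, a kinase acting upstream in the cascade, was higher at 0.39 (standard error 0.09, adjusted p = 0.0342 in edgeR). Over all 6 libraries the values of MOB1B and WWC1 were -0.34 and -0.22 (adjusted p = 0.262 and 0.488 in edgeR). Those of PTPN14 and WWC2 were -0.63 and -0.47 (adjusted p = 0.1 and 0.108 in edgeR), and that of TAOK2 was 0.29 (adjusted p = 0.194 in edgeR). The remaining 11, among them the core kinases STK3, STK4 and LATS1, did not pass.

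Of 5 tested TEAD cofactors and YAP1-binding genes outside the 10, 2 were lower and 0 higher, with a median of -0.28. These were VGLL3 at -0.59 (standard error 0.12, adjusted p = 0.022 in edgeR) and VGLL4 at -0.48 (standard error 0.09, adjusted p = 0.0166 in edgeR), both vestigial-like proteins that bind TEAD factors, VGLL4 in competition with YAP1. Over all 6 libraries VGLL4 had -0.27 and VGLL3 -0.62 (adjusted p = 0.291 and 0.094 in edgeR). VGLL3 was at 21.8, 23.1 and 22.9 CPM in the NC libraries and at 16.2, 13.5 and 14.5 CPM in the SiCIRBP libraries, and the groups did not overlap. TEAD2, TEAD3 and AMOTL1 did not pass. The Ajuba family members LIMD1 (-0.20) and WTIP (-0.11) did not pass either, nor did ANKRD23 (-0.64), the one tested relative of ANKRD1.

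A list of known YAP target genes, which holds 5 of the 10, had 16 further tested genes, of which 6 were lower and 2 higher, with a median of -0.32 over the 4 libraries and of -0.12 over all 6. NUAK2, a stress-related kinase, was at 46.2, 66.4 and 64.6 CPM in the NC libraries and at 35.2, 54.3 and 30.1 CPM in the SiCIRBP libraries. Its log2 fold change was -1.0 over the 4 libraries (standard error 0.11, adjusted p = 0.00572 in edgeR) but -0.57 over all 6 (adjusted p = 0.204 in edgeR), where the groups overlapped. ASAP1, a GTPase-activating protein of focal adhesions, had -0.70 (standard error 0.08, adjusted p = 0.00578 in edgeR), and -0.70 over all 6 (adjusted p = 0.0913 in edgeR). FJX1 was higher at 0.81 (standard error 0.08, adjusted p = 0.00478 in edgeR), with 0.66 over all 6 libraries (adjusted p = 0.0869 in edgeR). NT5E, which encodes the surface enzyme CD73, was higher at 0.70 (standard error 0.16, adjusted p = 0.0293 in edgeR), with 1.07 over all 6 libraries (adjusted p = 0.104 in edgeR). Among other CCN genes NOV was higher, at 1.69 (standard error 0.27, adjusted p = 0.0128 in edgeR), the opposite direction to CTGF and CYR61, from 29 to 46 counts in the NC and 73 to 137 counts in the SiCIRBP libraries. WISP1 and WISP2 did not pass.

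Actin-linked targets of SRF and its coactivator MRTF, which respond to many of the same inputs, included 7 lower and 0 higher genes of 13 tested, with a median of -0.58 over the 4 libraries but of -0.03 over all 6. SRF itself had -0.87 (standard error 0.10, adjusted p = 0.00578 in edgeR), or -0.53 over all 6 libraries (adjusted p = 0.175 in edgeR). The focal adhesion gene VCL had -0.66, the LIM gene FHL2 -0.74 and the actin gene ACTG1 -0.69 over the 4 libraries. Over all 6, VCL had -0.54 and ACTG1 -0.66 (adjusted p = 0.094 and 0.105 in edgeR). FHL2 was at 83.9, 131 and 136 CPM in the NC libraries and at 82.3, 185 and 76.9 CPM in the SiCIRBP libraries, and its log2 fold change over all 6 was -0.03. NC_1 lay at the level of SiCIRBP_1, and SiCIRBP_2 lay above every NC library. TAGLN, a smooth muscle actin-binding gene singled out after its values were seen, was likewise at 863 CPM in SiCIRBP_2 and at 92.0 and 150.4 CPM in the other SiCIRBP libraries, and its log2 fold change turned from -0.77 over the 4 libraries to 0.87 over all 6. No gene of any list was called over the 6 libraries in edgeR. At an unadjusted p-value under 0.05 edgeR gave 9 of the 21 tested genes of the YAP target list lower and 3 higher. That list holds 5 of the 10 genes. Of all 15217 genes tested, 1764 were lower and 1839 higher by the same rule. DESeq2 called 5 genes of the list lower and 2 higher, where it called 5.17% of all genes lower and 4.6% higher.

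**Figure D4:**
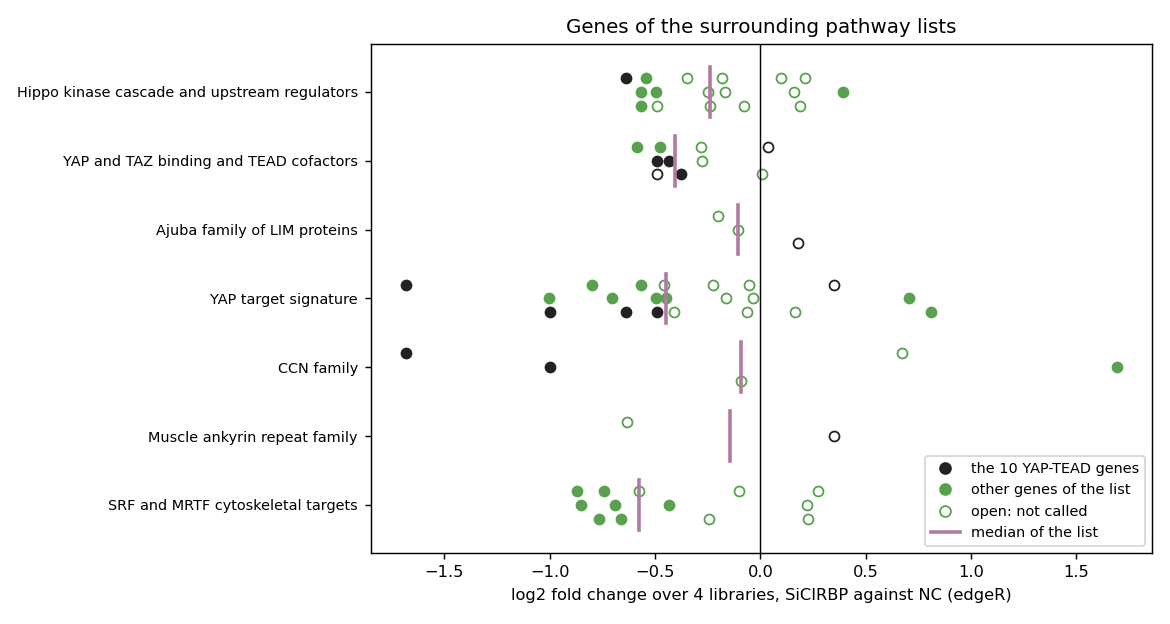
Log2 fold change over the 4 libraries for each tested gene of 7 pathway lists, with the 10 YAP-TEAD genes in black, other genes in green, filled where the adjusted p-value is under 0.05, and the median of each list as a bar. With the 10 genes included, as drawn here, the bars of the 7 lists lie below 0, the lowest at -0.58. Over all 6 libraries those of the Ajuba and ankyrin repeat families were at 0.12 and 0.51. The CCN median without CTGF and CYR61, of 3 tested genes, was 0.67 over the 4 libraries and -0.005 over all 6. The filled genes above 0 are TAOK2, FJX1, NT5E and NOV.

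The labelled cell type was checked against markers. Of 12 cardiomyocyte markers only 4 passed the filter on low counts, so this list does not by itself bear out the name cardiomyocyte. MYH6, MYL2 and RYR2 had 0 counts in all 6 libraries and TNNT2 had at most 1, whereas GATA4 was at 87.3, 111 and 108 CPM in the NC libraries and at 79.7, 47.4 and 84.6 CPM in the SiCIRBP libraries. NKX2-5 and GATA4 were lower over the 4 libraries, with log2 fold changes of -1.24 and -0.41 (adjusted p = 0.016 and 0.0211 in edgeR), and of -0.36 and -0.53 over all 6 (adjusted p = 0.639 and 0.198 in edgeR). NKX2-5 was at 9.49 CPM in SiCIRBP_2, above every NC library (at most 8.35 CPM). TNNI3, at no more than 30 counts per library, had a log2 fold change of 2.44 (adjusted p = 0.0719 in edgeR). The summed level of the list was 111 to 142 CPM in NC and 74.6 to 103 CPM in SiCIRBP libraries. Most of that sum came from GATA4 in every library, followed by ACTN2. Of 10 fibroblast markers 8 were tested, COL1A1 being higher (0.87, adjusted p = 0.0332 in edgeR) and PDGFRA lower (-0.38, adjusted p = 0.0297 in edgeR). COL1A1 was at 1629 CPM in SiCIRBP_2, below every NC library (2248 to 2932 CPM), and its log2 fold change was 0.41 over all 6 (adjusted p = 0.491 in edgeR). LUM was at 0, and the sum of the fibroblast list was 4109.6 to 4587 CPM in NC and 2864 to 7313 CPM in SiCIRBP. Of 7 endothelial markers 4 were tested, EMCN was at 0, VWF was higher from at most 16 counts, and the sums were 44.3 to 52.7 CPM and 35.7 to 55.4 CPM. The part of these markers in the changes of the YAP-TEAD genes was not tested.

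The genes whose pattern was most like that of CTGF over the 6 libraries, by the Pearson correlation of log2(CPM + 1), were CRLF3 (0.997), CEP72 (0.995), BRWD1 (0.994), SMAP1 (0.994) and PRXL2C (0.993), and CYR61 ranked 70 with 0.977. For CYR61 they were CAMK2D (0.996), NFX1 (0.99), EPG5 (0.989), DCTN4 (0.989) and WNK3 (0.988), with CTGF at rank 27. CRLF3, for example, was at 29.4, 36.3 and 35.2 CPM in the NC libraries and at 24.2, 22.4 and 20.3 CPM in the SiCIRBP libraries, the same order of libraries as CTGF. These correlations describe 6 libraries that share their normalization, and apart from CTGF and CYR61 themselves none of these genes is in the pathway lists.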

How the data were processed

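RNA-seq was analysed from 6 libraries, 3 per group, grouped and numbered by the labels; nothing there says whether they came from separate cultures, so p-values measure the spread between these libraries. Per gene and library, the authors deposited an estimated count, which is not normalized and need not be whole, and a TPM value. The submitters' processing notes list fastp, HISAT and RSEM and the build hg38, without versions. The deposited tables also hold the authors' own comparisons (fold changes and p-values), which were not used.

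Estimated counts were rounded and tested with edgeR 4.0.16 (R 4.3.3) by the quasi-likelihood test after TMM scaling and filterByExpr, over the 4 libraries of the study's test and over all 6. Standard errors were taken as the size of the log2 change over the root of its F statistic. DESeq2 1.42.0, RLE size factors, other filters, the replicate block and leaving out each library were the alternatives. Exact permutation tests used scipy 1.17.1. On simulated data with 200 genes changed by a log2 of 1.5, edgeR recovered 97.5% over 4 libraries (15343 genes) and 99.5% over 6 (15264 genes). The simulation gave every gene the same dispersion and held no library that deviates as SiCIRBP_2 does. It therefore checks the procedure and does not give the share of true changes that would be found in these libraries. Counts of the 10 genes lay between 937 and 26800 per library.

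The 10 genes and the lists were chosen with earlier results of these data known. By rule the text names these 10 and CIRBP, and up to 4 called genes per direction and list with the smallest p. It also names up to 3 genes by level where none was called, and the 5 genes most like CTGF and like CYR61. Other genes are named outside this rule. They include WWC1, TAGLN, uncalled genes of lists that have called genes, such as STK3, TEAD2 and WISP1, and markers such as MYH6, LUM and EMCN. Gene locations come from GENCODE 29 (58611 identifiers found), and promoter sequences from RefSeq.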

Additional observations from a re-analysis of the deposited data

How the results depend on the processing

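The calls depend on which libraries are used. Of the 10 genes, 6 were called lower over the 4 libraries, against 0 over all 6 in edgeR with or without the replicate block, and 2 (CTGF and CYR61) over 6 with DESeq2. Leaving out 1 of the 4 libraries gave between 1 and 7 lower and between 0 and 1 higher. Without NC_2 or without NC_3 only CTGF stayed called, and without SiCIRBP_1 or SiCIRBP_3 there were 7 lower and 1 higher (AJUBA or ANKRD1), the lone library being assumed to vary like the other group. Over 6 libraries, leaving out 1 gave between 0 and 2 lower, the 2 being CTGF and AMOTL2 without SiCIRBP_2. With no filter on low counts 1 gene (ANKRD1) was called higher over 4 and over 6 libraries, and 2 were called lower over 6. How many of all genes passed the adjusted threshold was not counted for these 6-library settings. The 10 genes can therefore be set beside all genes only at an unadjusted p-value under 0.05 in edgeR. Without SiCIRBP_2, 7 of the 10 were lower and 1 higher by that rule, and 2367 of all genes were lower and 2230 higher. Without the filter over 6 libraries, 5 of the 10 were lower and 2 higher, and 2278 and 2277 of all genes. All genes called lower over the 4 libraries numbered 1505, and 2492 without the filter. Over 6 there were 0 in edgeR, with and without the block, and 718 with DESeq2. Those called higher over the 4 libraries numbered 1484, and 2123 without the filter. Over 6 there were 0 in edgeR, 1 with the block and 639 with DESeq2. With 1 of the 4 libraries left out they ranged from 39 to 3669 lower and from 25 to 3379 higher. TEAD4 turned from 0.04 to -0.056 without SiCIRBP_1, within a range of -0.056 to 0.11 over the libraries left out. The signs of the other 9 were the same in all alternatives run.

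The deviations of same-numbered libraries from their group means had correlations of -0.12, 0.01 and -0.03. These values cannot tell whether the numbers pair the libraries, since SiCIRBP_2 deviates strongly and differently numbered libraries were not compared. The labels do not say so either. The replicate block called 0 of the 10 lower and 0 higher. In the 4 libraries only number 3 is shared, so no block was fitted there. Depth limits none of the 10 genes, but NOV, VWF and most cardiomyocyte markers rest on few counts.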
